A study of Mus musculus with 12 samples.

Results

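Gad2, Myo3b, Sln, Mlana, Kel, Clu and Penk are genes best known from nerve, inner ear, muscle, pigment, red blood and glandular cells, and each was measured here in cultured mouse T cells. They were chosen by their log2 differences between Th9 and Th2 cultures on these same arrays, large for genes known from other tissues. The choice thus partly set every member difference below that involves Th9 or Th2 arrays. Nothing is read from the p-values of such differences, which are given as a description. The 7 genes were found by the gene names printed in the scanner files and were represented by 11 of the 41174 probes of the array. All 7 passed the filter on dim probes and stood among the 17925 genes tested. Penk carried the older name Penk1 in the array design, while Mlana and Myo3b carried their own names.

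Naive CD4+CD62L+ T cells of C57BL/6 mice, taken from spleens and lymph nodes, were activated with antibodies against CD3 and CD28 and cultured under polarising conditions for 5 days, with fresh medium on day 3. Stimulated Th9 cultures were Th9 cultures that received antibody against CD3 at 1 µg/ml for a further 6 h. Th9 cultures held IL-4 at 20 ng/ml, TGF-β at 2 ng/ml and antibody against IFN-γ. Th2 cultures held IL-4 and antibody against IFN-γ without TGF-β, and Treg cultures held TGF-β and antibody against IL-4, with IL-2 added on day 3. Each of the 4 groups had 3 arrays, and the labels do not say whether these came from separate cultures or mice, so the p-values measure the spread between arrays, which may be technical. Groups are named for their culture conditions, and the labels give no sort for the cytokine or factor that defines each cell type.

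Th9 cells are helper T cells that make IL-9 and arise when IL-4 and TGF-β act together, whereas IL-4 without TGF-β gives Th2 cells and TGF-β without IL-4 favours regulatory T cells. Genes used by specialised tissues can also be read out in lymphocytes, and some of their products, such as enkephalin peptides and GABA, are known as signals between immune cells. The T cell receptor signal used for restimulation acts through calcium, kinases and transcription factors such as AP-1 and NFAT.

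The scanner software called 24642 to 26218 probes of an array (59.9 to 63.7%) well above background and 0 saturated. A level is given throughout as log2 of the processed signal minus the log2 of that array's 75th percentile, which lay at a signal of 555.6 to 827.6. Levels of different probes were not compared with each other. The arrays lay on 3 slides. Slide 1 held all Th2 arrays and Treg array 1, slide 2 held stimulated Th9 arrays 1 and 2 with Treg arrays 2 and 3, and slide 3 held all Th9 arrays with stimulated Th9 array 3. Th9 and Th2 arrays never shared a slide, and the scan times fell into the same 3 sets.

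The label of the cells was checked against marker genes. All 11 T cell markers, among them Cd3e, Cd4 and Lck, were well above background on all 12 arrays. The melanocyte enzymes Tyr, Tyrp1 and Dct, 3 of 6 melanocyte markers, were not well above background on any array. The same held for the erythroid markers Alas2, Rhag and Epb42, for 7 of 14 muscle markers (Myh2, Myh4, Myh6, Myl1, Mb, Des and Myog) and for 4 of 12 neuron markers (Syt1, Nefl, Nefm and Slc17a7). Some other markers of those lists were measured, such as Epor, the erythropoietin receptor gene, and Tubb3, a tubulin gene, which were well above background on all 12 arrays. B cell markers, summed as linear signal relative to the 75th percentile, reached 51.3 to 70.3 in Treg cultures, against 0.778 to 3.21 in stimulated Th9, 5.02 to 6.59 in Th9 and 2.45 to 4.16 in Th2 cultures, and their part in the results below was not tested. In such bulk samples, fewer cells that express a gene and less RNA per cell cannot be told apart.

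**Figure D1:**
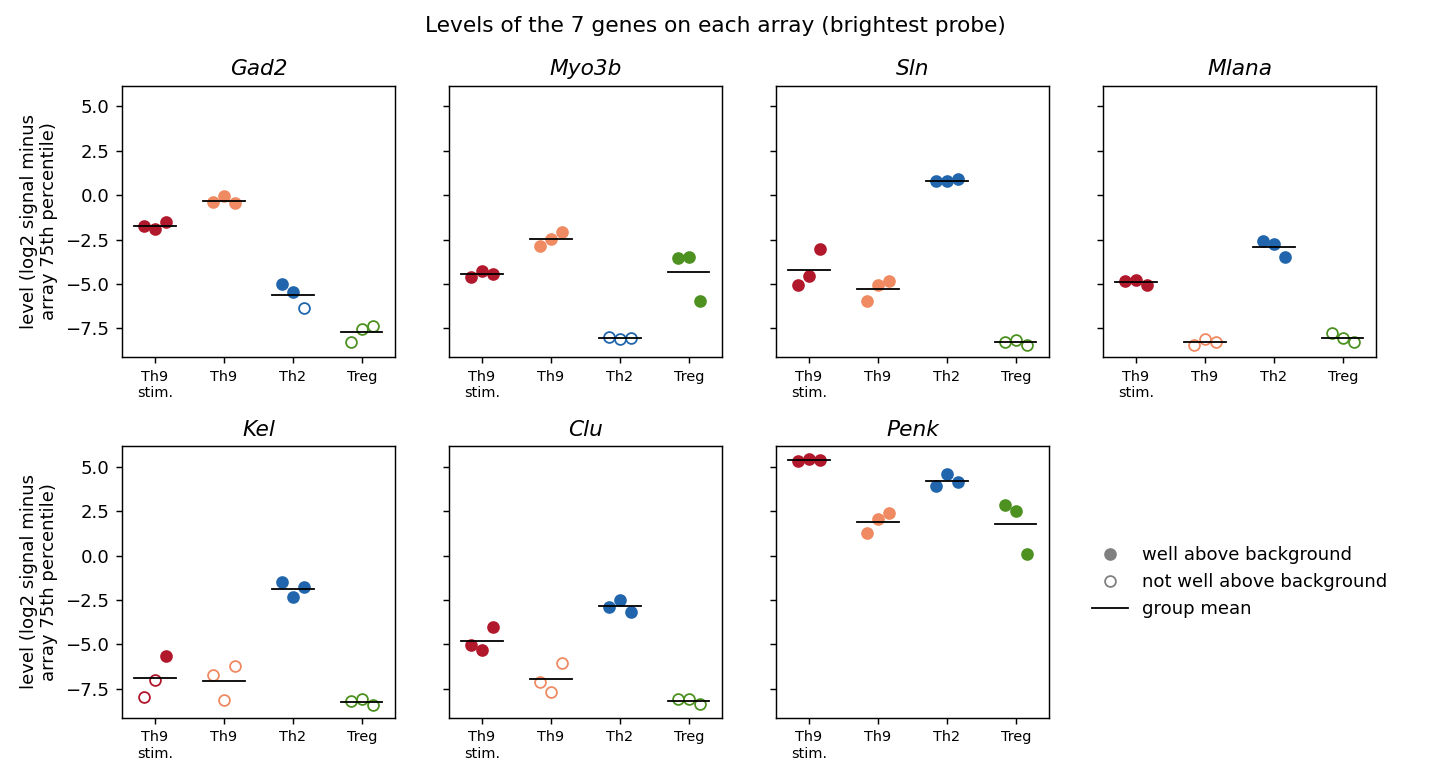
Level of each of the 7 genes on each of the 12 arrays, as log2 signal minus the array's 75th percentile, with 1 dot per array, a line at the group mean, and filled dots where the probe was well above background. Gad2 and Myo3b were highest in Th9 cultures (means -0.30 and -2.47), Sln, Mlana, Kel and Clu in Th2 cultures (0.82, -2.94, -1.86 and -2.85) and Penk in stimulated Th9 cultures (5.39).

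Sequences are shown where probes of a gene gave different readings or where the probe covers a known product. Penk encodes proenkephalin, a precursor that is cut into several copies of Met-enkephalin and 1 of Leu-enkephalin. Of the 2 Penk probes, the dimmer one lies on the minus strand at chr4:4061458-4061517 (mm8, per the file headers) and reads, 5′ to 3′:
Penk probe: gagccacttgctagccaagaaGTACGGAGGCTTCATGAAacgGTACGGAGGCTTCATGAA
The capitals mark the longest run that occurs 2 times in the probe, 18 bases that hold the codons of the Met-enkephalin peptide, so the probe lies in coding sequence. The run was found in 1 of the 41174 probes of the array, this one, and in 0 on the other strand. The brighter Penk probe starts 723 bases away.

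Penk was measured well above background on every array of every group. Its brighter probe gave levels of 5.31, 5.46 and 5.41 in stimulated Th9 cultures, 1.28, 2.06 and 2.38 in Th9 cultures, 3.94, 4.61 and 4.14 in Th2 cultures and 2.83, 2.49 and 0.09 in Treg cultures. The stimulated Th9 arrays were the highest and differed among themselves by less than the arrays of any other group, the Th2 arrays came next without overlap, and the Th9 and Treg arrays overlapped, with Treg array 3 the lowest of all. Penk was 11.2-fold higher in stimulated Th9 than in Th9 cultures, by 3.49 ± 0.59 on the log2 scale (limma standard error, SE, with 3 arrays in each group; adjusted p = 0.000352). Penk had been chosen as low on these Th9 arrays, which partly set this difference. It was 12.1-fold higher in stimulated Th9 than in Treg cultures (3.59, adjusted p = 0.000216). Th2 cultures were 5.39-fold higher than Treg cultures (2.43, adjusted p = 0.00405), a call that was lost once slide was added as a block (1.40, adjusted p = 0.163). The size of both differences depended on Treg array 3, without which they were 2.74 (adjusted p = 2.34e-05) and 1.57 (adjusted p = 0.00136). Stimulated Th9 and Th2 cultures did not overlap, but the difference of 1.16 ± 0.59 missed the threshold in the fit of all arrays (adjusted p = 0.109), where the 4 groups share an estimate of the spread, and passed it when only the 6 arrays of these groups were fitted (adjusted p = 0.00189).

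The enkephalin-coding probe gave the same order of groups. Its mean level was 2.07 ± 0.05 (SD, n = 3) in stimulated Th9, -1.38 ± 0.71 in Th9, 0.83 ± 0.30 in Th2 and -1.64 ± 1.46 in Treg cultures. The log2 difference between stimulated Th9 and Th9 cultures was 3.45 ± 0.59 (SE; adjusted p = 0.000379), 10.9-fold, against 11.2-fold from the other probe. A further probe, named 2310014G06Rik in the design but described there as preproenkephalin 1 and lying on the same strand 3393 bases from the coding probe, was not counted among the 11. It averaged -3.40 ± 0.28 in stimulated Th9 and -5.27 ± 0.22 in Th2 cultures and was not well above background on any Th9 or Treg array, and stimulated Th9 cultures exceeded Th9 cultures at least 6.77-fold (adjusted p = 1.23e-06). A fold written as at least N compares the brighter group's mean with the lowest signal called well above background on the arrays of a group where the probe never reached that call, or on those of its arrays that did not reach it.

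Gad2 encodes GAD65, the form of glutamate decarboxylase that makes GABA at nerve terminals and that is also a known autoantigen of pancreatic islets. Its brighter probe gave -1.75, -1.90 and -1.53 in stimulated Th9 cultures, -0.40, -0.04 and -0.47 in Th9 cultures, -5.01, -5.45 and -6.38 in Th2 cultures and -8.28, -7.54 and -7.35 in Treg cultures. No 2 groups overlapped, Th2 array 3 and all Treg arrays were not well above background, and the highest levels were those of Th9 cultures. Restimulation went with a 2.68-fold lower level, -1.42 ± 0.33 on the log2 scale (SE; adjusted p = 0.00308). The level was still at least 20.0-fold higher in stimulated Th9 than in Treg cultures (difference 6.00 ± 0.33, adjusted p = 5.65e-08), and it exceeded the Th2 level at least 13.5-fold (adjusted p = 2.78e-06), where 2 of 3 arrays measured it. Th9 cultures stood at least 53.6-fold above Treg cultures (adjusted p = 3.37e-08). These cultures share TGF-β and differ by IL-4, the antibodies and IL-2, whose parts cannot be told apart here. Th2 cultures were at least 1.35-fold above Treg cultures (adjusted p = 0.000238), which was not called with another background correction, normexp (0.20, adjusted p = 0.201).

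The second Gad2 probe, which starts 3235 bases away, followed the first. It averaged -2.74 ± 0.16 (SD, n = 3) in stimulated Th9 and -1.37 ± 0.24 in Th9 cultures, and never reached the background call on Th2 or Treg arrays. Its difference between stimulated Th9 and Th9 cultures was -1.36 ± 0.17 (SE; adjusted p = 3.62e-05), a 2.57-fold lower level. In stimulated Th9 cultures this probe exceeded its Th2 level at least 9.36-fold (adjusted p = 1.38e-07).

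Myo3b encodes an unconventional myosin with a kinase domain, known from the actin protrusions of hair cells and photoreceptors. Its 2 probes disagreed. One was designed on a RIKEN cDNA and lies on the plus strand at chr2:70229822-70229881 (mm8), the other was designed on the RefSeq transcript and lies 1568 bases away at chr2:70228254-70228313. The files name no exon or untranslated region for either. The first 30 bases of each, 5′ to 3′ in lower case, identify them:
Myo3b cDNA probe: gcagattttctctgagtgccttcggaaatt
Myo3b RefSeq probe: gtggccatggtttatgcttagaaagaaaac
The RefSeq probe did not reach the background call on the 12 arrays, so every Myo3b value below rests on the cDNA probe, and whether that probe reads the annotated Myo3b transcript was not tested.

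The cDNA probe gave -4.61, -4.29 and -4.42 in stimulated Th9 cultures, -2.88, -2.46 and -2.06 in Th9 cultures, -7.99, -8.11 and -8.06 in Th2 cultures and -3.53, -3.49 and -5.99 in Treg cultures. Th9 arrays were the highest, Th2 arrays were not well above background, and stimulated Th9 arrays lay between Treg arrays 1 and 2 on the one side and Treg array 3 on the other. Myo3b was 3.92-fold lower in stimulated Th9 than in Th9 cultures (-1.97 ± 0.54, SE; adjusted p = 0.00787), a call that was lost at nearly the same difference when slide was a block (-1.95, adjusted p = 0.0582). Th9 cultures were 3.66-fold higher than Treg cultures (adjusted p = 0.0107), which also was not called in that fit (2.24, adjusted p = 0.109) and was 1.05 without Treg array 3 (adjusted p = 0.00149). Myo3b was the gene of the 7 that was lower in Th2 than in Treg cultures, at least 3.08-fold (-3.71, adjusted p = 0.000136, and -4.54 without Treg array 3), and it was at least 2.87-fold higher in stimulated Th9 than in Th2 cultures (adjusted p = 0.000158). Between stimulated Th9 and Treg cultures the difference was -0.10 ± 0.54 (adjusted p = 0.876). Treg array 3 decided that value, since without it the difference was -0.93 (adjusted p = 0.00237).

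Sln encodes sarcolipin, a small membrane protein that inhibits the SERCA calcium pump of muscle and uncouples it from calcium transport. Its 2 probes disagreed as well. The probe of the RefSeq transcript at chr9:53651904-53651963 (mm8, plus strand) was bright, while a probe designed on an Ensembl transcript that starts 388 bases further along, at chr9:53652292-53652351, was well above background on 1 of 12 arrays, Th9 array 2. Their first 30 bases are:
Sln RefSeq probe: gccttagctttgttccctagcaaatgtact
Sln Ensembl probe: ctcaaacctttccttcgagaatcctatgac
On the Th2 arrays, where the RefSeq probe was brightest, the Ensembl probe gave -8.14, -7.22 and -8.29, and its reading of that one Th9 array was -5.63.

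The RefSeq probe of Sln gave -5.08, -4.57 and -3.02 in stimulated Th9 cultures, -5.94, -5.05 and -4.84 in Th9 cultures, 0.80, 0.78 and 0.88 in Th2 cultures and -8.27, -8.14 and -8.43 in Treg cultures. The Th2 arrays stood far above all others and close to each other, and no Treg array was well above background. Sln was at least 117-fold higher in Th2 than in Treg cultures, 9.10 ± 0.44 on the log2 scale (SE; adjusted p = 5.96e-08), and 33.0-fold lower in stimulated Th9 than in Th2 cultures (-5.04, adjusted p = 3.48e-06). Stimulated Th9 cultures were at least 3.54-fold above Treg cultures (adjusted p = 9.67e-06), and Th9 cultures at least 1.71-fold (3.00, adjusted p = 0.000157). The call between Th9 and Treg cultures was lost with normexp (0.15, adjusted p = 0.506), and so was it with slide as a block (1.20, adjusted p = 0.0936).

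Restimulated and unstimulated Th9 cultures overlapped in Sln, with a difference of 1.05 ± 0.44 (adjusted p = 0.0583) that missed the threshold. It passed in 6 of 16 other settings, among them the fit with a slide block, which compares stimulated Th9 array 3 with the Th9 arrays of its own slide (2.26, adjusted p = 0.00135). It did not pass in the other 10, such as normexp (0.43, adjusted p = 0.0804), and without stimulated array 3 it was 0.45 (adjusted p = 0.195). Stimulated array 3, at -3.02, was the highest of its group, and it was the array on the slide of the Th9 arrays. Without it, stimulated Th9 cultures differed in Sln by 3.45 from Treg cultures and by -5.65 from Th2 cultures, both still called.

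Mlana encodes melan-A, a melanosome protein and tumour antigen of melanoma. Its probe gave -4.85, -4.80 and -5.04 in stimulated Th9 cultures, -8.43, -8.09 and -8.29 in Th9 cultures, -2.60, -2.75 and -3.47 in Th2 cultures and -7.78, -8.02 and -8.29 in Treg cultures. It was well above background on every stimulated Th9 and Th2 array and on no Th9 or Treg array. Mlana stood at least 2.40-fold above its Th9 level in stimulated Th9 cultures (3.37 ± 0.22, SE; adjusted p = 3.7e-07), still 3.89-fold lower than in Th2 cultures (-1.96, adjusted p = 1.75e-05). Against Treg cultures it was at least 2.22-fold higher in stimulated Th9 cultures (adjusted p = 2.83e-07) and at least 8.62-fold higher in Th2 cultures (adjusted p = 2.76e-08). Stimulated Th9 array 3 lay close to the other arrays of its group, and its difference from the Th9 arrays on its slide was 3.23. Of the 6 melanocyte markers, Tyr, Tyrp1 and Dct were not well above background in any group, Pmel and Sox10 were well above it on all 12 arrays, and Mitf on the 3 Treg arrays. Mean levels of Pmel were -4.01 in stimulated Th9, -4.03 in Th9, -4.24 in Th2 and -4.39 in Treg cultures, and those of Sox10 were -4.30 in stimulated Th9, -3.57 in Th9, -3.89 in Th2 and -3.81 in Treg cultures.

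Clu encodes clusterin, a secreted chaperone that binds misfolded proteins, lipoproteins and complement. Its probe gave -5.02, -5.29 and -4.04 in stimulated Th9 cultures, -7.14, -7.66 and -6.05 in Th9 cultures, -2.89, -2.51 and -3.15 in Th2 cultures and -8.09, -8.08 and -8.36 in Treg cultures. No groups overlapped, and neither Th9 nor Treg arrays were well above background. Clu was at least 2.53-fold higher in stimulated Th9 than in Th9 cultures (2.17 ± 0.40, SE; adjusted p = 0.000706), and it exceeded the Treg level at least 2.40-fold (adjusted p = 1.86e-05). It was 3.83-fold lower in stimulated Th9 than in Th2 cultures (adjusted p = 0.0016), and Th2 cultures were at least 9.19-fold above Treg cultures (adjusted p = 1.2e-06). Between Th9 and Treg cultures, both below the background call, the difference of 1.22 was called (adjusted p = 0.0211) but turned to -0.13 with normexp, and it was 0.77 without Th9 array 3 and 1.13 without Treg array 3, not called in either case, so no order between them is given.

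Kel encodes the Kell blood group protein, a zinc endopeptidase of the red cell membrane that cleaves the precursor of endothelin-3. Its probe gave -7.97, -7.01 and -5.66 in stimulated Th9 cultures, -6.75, -8.15 and -6.20 in Th9 cultures, -1.49, -2.31 and -1.77 in Th2 cultures and -8.20, -8.06 and -8.41 in Treg cultures. It was well above background on all Th2 arrays and, outside that group, on stimulated Th9 array 3. Kel was at least 16.9-fold lower in stimulated Th9 than in Th2 cultures (-5.02 ± 0.58, SE; adjusted p = 2.24e-05, and -5.63 without stimulated Th9 array 3) and at least 18.3-fold higher in Th2 than in Treg cultures (adjusted p = 4.22e-06). Kel passed the filter on dim probes through its Th2 arrays, so nothing is read from these p-values. Restimulation gave no call (0.15 ± 0.58, adjusted p = 0.832), unlike the calls for Mlana and Clu, a contrast between genes that was not tested. Against Treg cultures, stimulated Th9 cultures differed by 1.35 ± 0.58 (adjusted p = 0.0555), which passed the threshold in 4 of 16 other settings. Without stimulated Th9 array 1 it was 1.89 (adjusted p = 0.0111), and without array 3 it was 0.74 (adjusted p = 0.223). Under normexp it was 0.09 (adjusted p = 0.588), and a slide block gave 0.75 (adjusted p = 0.291).

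The stretch before the start of Kel is shown because erythroid genes are known to be read through GATA factors, whose sites also occur in Th2 genes. The 250 bases upstream of the RefSeq start (GRCm38.p6 chr6:41704326-41704575, minus strand, 5′ to 3′) were searched on both strands for GATAA (GATA factors), TGANTCA (AP-1) and CAGACA (SMAD factors). Capitals mark the matches:
Kel promoter: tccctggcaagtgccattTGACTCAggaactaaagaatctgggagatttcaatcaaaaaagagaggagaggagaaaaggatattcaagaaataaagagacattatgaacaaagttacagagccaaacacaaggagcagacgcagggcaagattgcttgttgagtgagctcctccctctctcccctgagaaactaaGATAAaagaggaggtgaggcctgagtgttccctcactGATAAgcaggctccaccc
GATAA occurred 55 and 18 bases before the start and TGACTCA 232 bases before it. Among 32851 RefSeq promoter windows of the same length, 22.6% held GATAA, 6.75% held TGANTCA and 17.1% held CAGACA. The windows of Gad2 and Myo3b, the other members with a sequence in the RefSeq table, held none of these letters. A match is a description of the letters, and binding was not measured here.

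**Figure D2:**
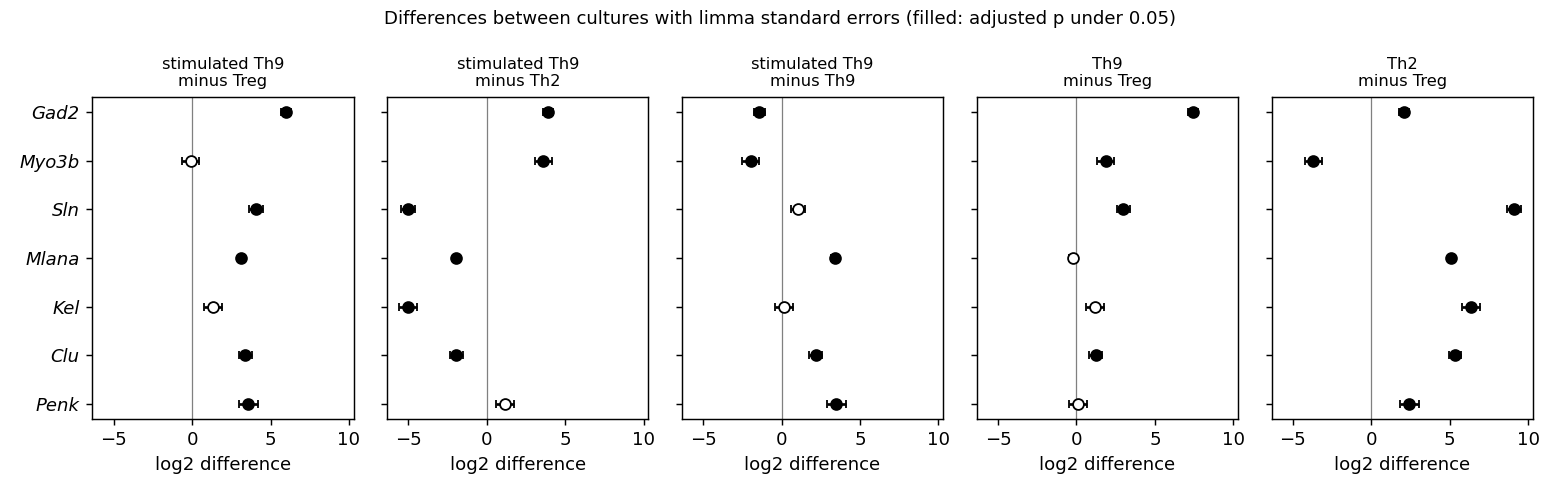
Log2 difference of each gene in 5 comparisons, with limma standard errors as bars and filled dots at an adjusted p under 0.05. In Th2 minus Treg all 7 genes are filled, 6 to the right of 0, where 63.1% of all genes were called, 28.6% higher and 34.5% lower. In stimulated Th9 minus Th9, Gad2 and Myo3b (-1.42 and -1.97) lie opposite to Mlana, Clu and Penk (3.37, 2.17 and 3.49). The choice of the genes used the Th2 and Th9 arrays and partly set both patterns, so nothing is read from them.

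Most genes on the arrays differed between these cultures, so each count of called members is read beside the share of all genes called. Between stimulated Th9 and Treg cultures, 5 of 7 were higher (Penk, Clu, Gad2, Mlana and Sln) and 0 lower. Over all 17925 genes 71.8% were called, 35.0% higher and 36.7% lower. The arrays of these groups had not been used to choose the genes. Stimulated Th9 cultures are, however, restimulated Th9 cultures, so the choice may have partly set this count and the median. Genes not measured on Treg arrays could hardly come out lower, so nothing is read from either. The median log2 difference of the 7 was 3.39, against -0.046 over all genes, and 1.26 when arrays below the background call were set to their lowest signal above it, since Gad2, Sln, Mlana, Kel and Clu were not measured on any Treg array. With normexp the 5 calls stood at smaller differences for 4 of the genes, 1.94 for Gad2, 0.58 for Sln, 0.39 for Clu and 0.37 for Mlana (adjusted p = 0.0351), while Penk was at 3.56. Both groups had 2 arrays on slide 2, and there the differences were 5.62 for Gad2, 4.10 for Penk, 3.46 for Sln, 3.33 for Mlana, 3.06 for Clu, 0.75 for Kel and 0.29 for Myo3b. With the slide as a block the same 5 genes were called.

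After restimulation, 3 of 7 genes were higher in stimulated Th9 than in Th9 cultures (Penk, Mlana and Clu) and 2 lower (Gad2 and Myo3b), where 64.0% of all genes were called, 32.0% higher and 31.9% lower. The choice had used the Th9 arrays and partly set these directions, since it took Gad2 and Myo3b as high and Penk, Mlana and Clu as low on them, so nothing is read from the count. On slide 3, which held stimulated Th9 array 3 and the Th9 arrays, the differences were 3.51 for Penk, 3.23 for Mlana, 2.92 for Clu, 2.26 for Sln, 1.38 for Kel, -1.22 for Gad2 and -1.95 for Myo3b. Against Th2 cultures, 2 of 7 genes were higher in stimulated Th9 cultures (Gad2 and Myo3b) and 4 lower (Sln, Kel, Mlana and Clu), where 61.8% of all genes were called, 31.1% higher and 30.7% lower. Of the 5 genes that the choice had put higher in Th2 than in Th9 cultures, Sln, Kel, Mlana and Clu were lower than in Th2 cultures after restimulation too. That direction was partly set by the choice, since the Th2 arrays are shared. Penk did not keep it, and lay above its Th2 level by 1.16 without overlap. Its difference was not called in the fit of all arrays (adjusted p = 0.109) and was called with only the 6 arrays compared (adjusted p = 0.00189).

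Th9 and Treg cultures, which share TGF-β and differ by IL-4 and the antibodies and IL-2, differed in 4 of 7 genes (Gad2, Sln and Myo3b higher in Th9, and Clu, which was below the background call in both), where 64.2% of all genes were called, 28.1% higher and 36.1% lower. That count was 1, Gad2, with the slide as a block and 2 with normexp. Th2 and Treg cultures differed in all 7, with 6 higher and Myo3b lower in Th2 cultures, where 63.1% of all genes were called, 28.6% higher and 34.5% lower. Here too the choice, which used the Th2 arrays, partly set the count, and Kel passed the filter on dim probes through its Th2 arrays, so nothing is read from it. On slide 1, which held the Th2 arrays and Treg array 1, the differences were 9.09 for Sln, 6.34 for Kel, 5.24 for Clu, 4.84 for Mlana, 2.67 for Gad2, 1.40 for Penk and -4.52 for Myo3b. These comparisons share their Treg arrays and are not independent of each other.

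The difference between Th9 and Th2 cultures chose the genes and is given as a description, with no test. Myo3b exceeded its Th2 level at least 11.3-fold in Th9 cultures and Gad2 at least 36.2-fold. Sln was 68.5-fold lower in Th9 cultures (-6.10) and Penk 5.01-fold (-2.32), while Kel was at least 19.7-fold, Clu at least 9.68-fold and Mlana at least 9.31-fold lower. The last 3 were not measured on any Th9 array, so these bounds give no order between them. The choice gives no threshold, and Fam20a (-2.31) stood next after Penk, the member with the smallest difference. Over all genes 17.1% were called in this comparison, 7.90% higher and 9.18% lower, from which nothing is read about the members. With the slide as a block, which joins Th9 to Th2 arrays through the stimulated Th9 and Treg arrays, Penk differed by -0.81, while the other 6 kept differences between -7.89 (Sln) and 6.76 (Myo3b).

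**Figure D3:**
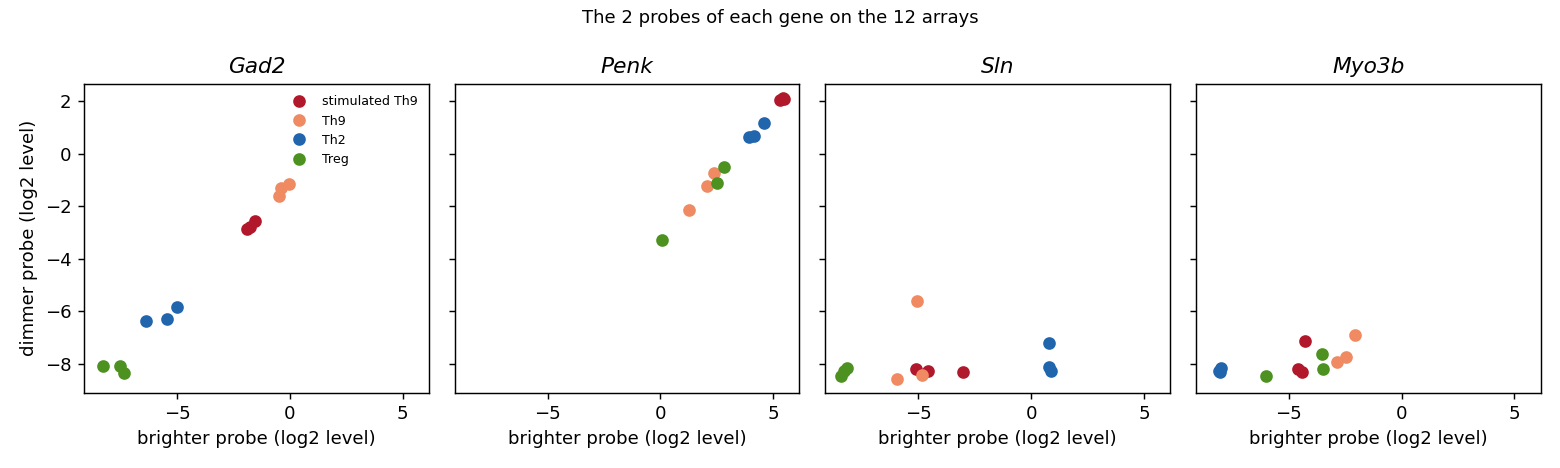
The 2 probes of Gad2, Penk, Sln and Myo3b, with 1 dot per array, the brighter probe's level on the x axis and the dimmer probe's on the y axis, both as log2 signal minus the array's 75th percentile. The probes of Gad2 and Penk move together over the 12 arrays, while the dimmer Sln probe stays between -8.29 and -7.22 on the Th2 arrays and the dimmer Myo3b probe stays at -6.92 or below throughout.

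Profiles over the 12 arrays were set beside those of all other tested genes by the root mean square difference of centred log2 levels, a description in which the points share 4 groups. The gene closest to Gad2 was Col5a1, a collagen gene (0.73), then Ccn2 (1.03) and Nectin3 (1.05). For Myo3b they were Itgae, the integrin CD103 (0.96), Csf2rb2 (1.08) and Prss12 (1.1). Clu lay nearest to Prdm8 (0.65), Nos1 (0.67) and Slc7a8 (0.69), and Penk to Nhlrc1 (0.49), Car12 (0.50) and Ddit4l (0.56). Mlana lay nearest to Clu (0.77), Aldh1a3 (0.79) and Prxl2a (0.86). Sln lay nearest to Kel (1.23), Cavin3 (1.27) and Clu (1.49), and Kel to Mogat2 (0.95), Gm6213 (0.99) and Col18a1 (1.01). Among the members, Mlana and Clu were the closest pair, and Myo3b and Sln the most distant (5.07). The choice of the genes used the Th9 and Th2 arrays and partly set the distances between members, so nothing is read from them.

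The partners of these proteins were described from 7 lists with 132 genes besides the members, of which 83 passed the filter on dim probes. Of the 83, 25 were higher and 30 lower in stimulated Th9 than in Treg cultures (66.3%), 22 higher and 31 lower in stimulated Th9 than in Th9 cultures (63.9%), and between Th9 and Th2 cultures 7 were higher and 3 lower in Th9 (12.0%). These shares lie near those over all genes, which were 71.8, 64.0 and 17.1%. The lists were therefore called about as often as genes at large, and the count between Th9 and Th2 cultures depended on the setting. Counts of single lists below are read beside the same shares. For stimulated Th9 against Treg cultures these were 35.0% higher and 36.7% lower, and against Th9 cultures 32.0% higher and 31.9% lower. No list was tested as a set.

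**Figure D4:**
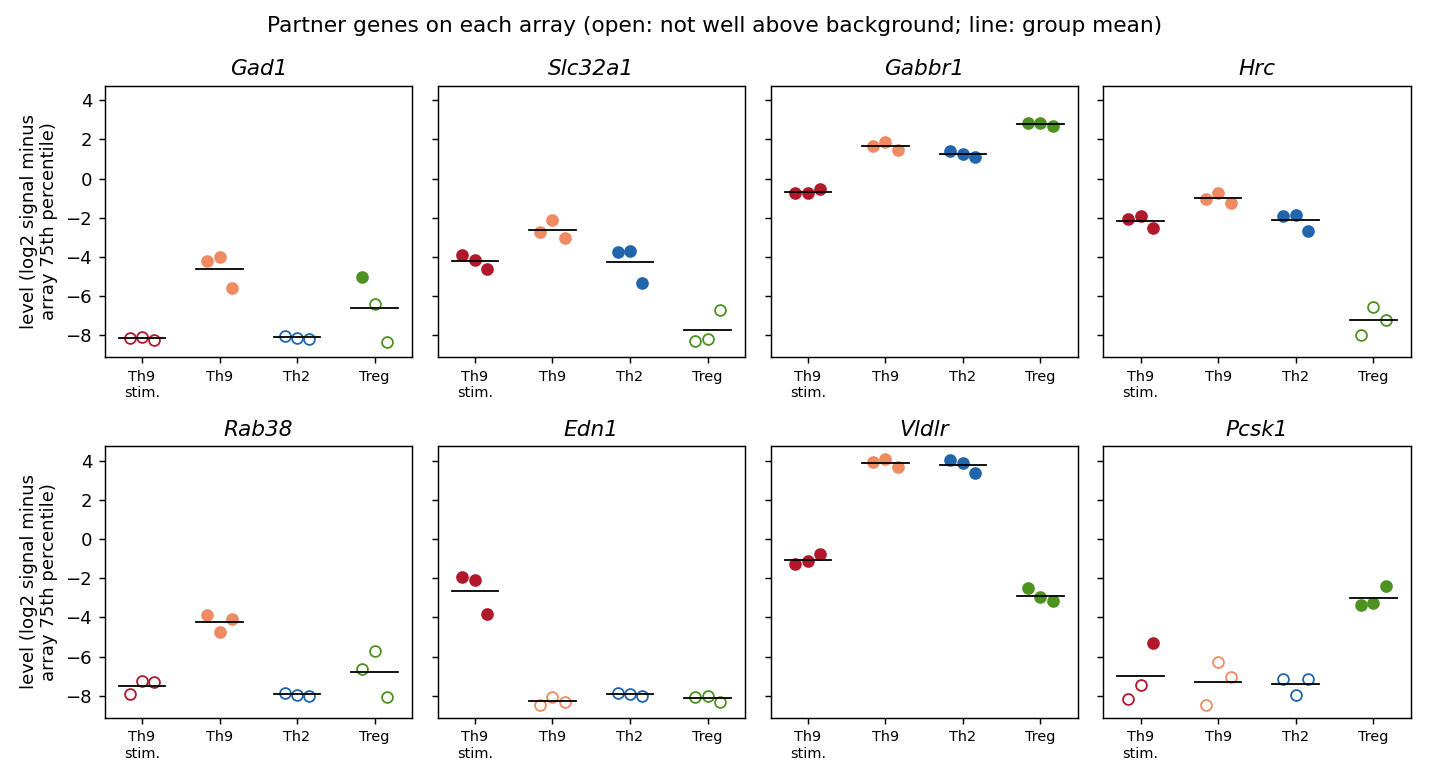
Level of 8 partner genes on each array, as log2 signal minus the array's 75th percentile, with open dots where the probe was not well above background and a line at the group mean. Gad1 and Rab38 are well above background on all Th9 arrays (means -4.60 and -4.23) and on no stimulated Th9 or Th2 array, and Edn1 only on stimulated Th9 arrays (-2.63).

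In the GABA list, 1 of 11 tested genes was higher and 6 were lower in stimulated Th9 than in Treg cultures. Against Th9 cultures, 0 were higher and 7 lower in stimulated Th9 cultures. Over all genes, 71.8 and 64.0% were called in these comparisons. Gad1, the gene of GAD67, the other form of the GABA-making enzyme, gave -8.14, -8.09 and -8.26 in stimulated Th9 cultures, -4.19, -4.01 and -5.60 in Th9 cultures, -8.02, -8.12 and -8.17 in Th2 cultures and -5.04, -6.38 and -8.35 in Treg cultures. It was thus measured on all Th9 arrays, on Treg array 1 and on no other array. In stimulated Th9 cultures its level was at least 2.75-fold below that of Th9 cultures (-3.56 ± 0.68, SE; adjusted p = 0.000811), and Th9 cultures exceeded Th2 cultures at least 2.57-fold (adjusted p = 0.00627). Gad1 passed the filter on dim probes through its Th9 arrays, so nothing is read from these p-values. Gad1 and Gad2 were both lower after restimulation, and Gad2 stayed well above background where Gad1 did not.

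Slc32a1, the vesicular transporter of GABA, was at least 3.57-fold higher in stimulated Th9 than in Treg cultures (adjusted p = 8.81e-05), and its mean level was -4.21 ± 0.36 (SD, n = 3) in stimulated Th9, -2.63 ± 0.49 in Th9 and -4.27 ± 0.93 in Th2 cultures. Gabbr1, a subunit of the GABA-B receptor, was 11.2-fold lower in stimulated Th9 than in Treg cultures (adjusted p = 4.85e-09) and 5.03-fold lower than in Th9 cultures (adjusted p = 1.88e-07). Slc6a13, a GABA uptake transporter, was 7.67-fold lower in stimulated Th9 than in Treg cultures (adjusted p = 9.72e-07). Gad1, Gad2 and Slc32a1 thus had their highest means in Th9 cultures, and Gabbr1 in Treg cultures (2.81 ± 0.09). Between Th9 and Th2 cultures Slc32a1 gave no call (1.65 ± 0.51, SE; adjusted p = 0.0504). Of the 11 tested genes of the list, 1, Gad1, was called there.

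Among unconventional myosins and the actin bundlers of the espin family, 9 of 17 tested genes were higher and 2 lower in stimulated Th9 than in Treg cultures. Myo6, a myosin that moves towards the minus end of actin, was 22.5-fold higher (adjusted p = 6.11e-07), Myo10, a myosin of filopodia, 13.3-fold (adjusted p = 3.48e-09) and Myo1d 9.27-fold (adjusted p = 1.41e-08). After restimulation, 8 were higher and 6 lower. Espn, the espin that MYO3 proteins carry in hair cells, was 7.13-fold lower in stimulated Th9 than in Th9 cultures (-2.83 ± 0.29, SE; adjusted p = 9.75e-06), and its mean level was -0.26 ± 0.42 (SD, n = 3) in stimulated Th9, 2.57 ± 0.39 in Th9, 2.52 ± 0.50 in Th2 and -2.86 ± 0.25 in Treg cultures. Between Th9 and Th2 cultures Espn differed by 0.06 ± 0.29 (adjusted p = 0.922). Myo1d was the one gene of the 17 called between Th9 and Th2 cultures, 2.27-fold higher in Th9 (adjusted p = 0.000421).

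Among SERCA pumps, their regulators and the proteins of store calcium, 6 of 16 tested genes were higher and 9 lower in stimulated Th9 than in Treg cultures. Hrc, a calcium-binding protein of the muscle sarcoplasmic reticulum, gave -2.04, -1.92 and -2.50 in stimulated Th9 cultures, -1.02, -0.73 and -1.22 in Th9 cultures, -1.89, -1.86 and -2.66 in Th2 cultures and -7.99, -6.55 and -7.20 in Treg cultures. It was at least 14.9-fold higher in stimulated Th9 than in Treg cultures (adjusted p = 2.25e-07), where it was not well above background. Between stimulated Th9 and Th2 cultures Hrc differed by -0.02 ± 0.34 (adjusted p = 0.973), where Sln differed by -5.04. Atp2a2, the SERCA2 pump, was 5.04-fold higher in stimulated Th9 than in Th9 cultures (adjusted p = 1.43e-06), while Itpr2, a channel that releases store calcium, and Orai2, a channel of store-operated entry, were 3.63-fold and 3.07-fold lower (adjusted p = 2.92e-06 and 1.03e-05).

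In the melanocyte and melanosome list, 1 of 12 tested genes was higher and 6 were lower in stimulated Th9 than in Treg cultures, and 1 was higher and 6 were lower in stimulated Th9 than in Th9 cultures. Rab38, a small GTPase that brings enzymes to melanosomes, was measured on the Th9 arrays (-3.88, -4.75 and -4.06) and was not well above background on any other array. Its level in stimulated Th9 cultures was at least 3.56-fold lower than in Th9 cultures (adjusted p = 0.000117), and Th9 cultures exceeded Th2 cultures at least 3.32-fold (adjusted p = 0.000578), opposite to Mlana in both. Rab38 passed the filter on dim probes through its Th9 arrays alone, so nothing is read from these p-values. Lyst, which controls the size of lysosome-related organelles, was 5.34-fold lower in stimulated Th9 than in Treg cultures (adjusted p = 1.02e-07) and Rab27a, which tethers such organelles, 3.88-fold lower (adjusted p = 1.19e-06). Slc24a5, an exchanger of pigment organelles, was 2.34-fold higher in stimulated Th9 than in Th9 cultures (adjusted p = 1.8e-05).

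Of the partners of the Kell protein, 7 genes were tested, and 3 were higher and 1 lower in stimulated Th9 than in Th9 cultures. Edn1, the gene of endothelin-1, gave -1.96, -2.11 and -3.81 in stimulated Th9 cultures and was not well above background on any other array. Stimulated Th9 cultures stood at least 11.5-fold above Th9 cultures (5.65 ± 0.38, SE; adjusted p = 5.26e-07) and exceeded the Treg level at least 10.7-fold (adjusted p = 3.05e-07). Edn1 passed the filter on dim probes through its stimulated Th9 arrays alone, so nothing is read from these p-values. Ece1, the main endothelin-converting enzyme, was 3.15-fold higher (adjusted p = 4.24e-05), and Xk, which is linked to Kell in the red cell membrane, 2.66-fold higher (adjusted p = 0.0135), in stimulated Th9 than in Th9 cultures. Xk gave no call between Th9 and Th2 cultures, with mean levels of -5.50 ± 0.54 (SD, n = 3) and -5.50 ± 0.99. Summed erythroid marker signals were 0.422 to 0.591 in stimulated Th9, 1.97 to 3.58 in Th9, 1.14 to 2.34 in Th2 and 0.553 to 0.690 in Treg cultures, an order that Kel did not follow.

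Of the partners of clusterin, 5 of 8 tested genes were higher and 2 lower in stimulated Th9 than in Treg cultures. C3, the central complement protein, was 26.5-fold higher (adjusted p = 6.47e-08), Lrp8, a receptor of clusterin and apolipoprotein E, 14.7-fold (adjusted p = 7.98e-10) and Hspa5, a chaperone of the endoplasmic reticulum, 8.22-fold (adjusted p = 4.81e-07). Vldlr, the other such receptor, gave -1.26, -1.12 and -0.75 in stimulated Th9 cultures, 3.95, 4.11 and 3.66 in Th9 cultures, 4.02, 3.89 and 3.40 in Th2 cultures and -2.48, -2.98 and -3.18 in Treg cultures. It was 30.9-fold lower in stimulated Th9 than in Th9 cultures (-4.95 ± 0.23, SE; adjusted p = 8.39e-08), a direction opposite to that of Clu. Apoe, apolipoprotein E, was 3.69-fold higher in stimulated Th9 than in Th9 cultures (adjusted p = 3.27e-05).

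Among opioid peptides, receptors and processing enzymes, 2 of 12 tested genes were higher and 4 lower in stimulated Th9 than in Treg cultures, and 2 were higher and 1 lower in stimulated Th9 than in Th9 cultures. Pcsk1, a convertase that cuts proenkephalin, was well above background on 1 of 3 stimulated Th9 arrays and on all Treg arrays, and it was at least 6.96-fold lower in stimulated Th9 than in Treg cultures (-3.95 ± 0.71, SE; adjusted p = 0.000442). Scg5, the chaperone of the convertase PC2, had an at least 3.30-fold lower level (adjusted p = 1.41e-05), and Cpe, the carboxypeptidase that trims the cut peptides, was 2.81-fold higher (adjusted p = 0.00504). Pcsk1 and Scg5 passed the filter on dim probes through their Treg arrays, so nothing is read from their p-values. Pdyn, which encodes the related precursor prodynorphin, was at least 1.89-fold lower in stimulated Th9 than in Th9 cultures (adjusted p = 0.0392), with 1 of 3 stimulated arrays well above background. Ogfr, an opioid growth factor receptor, was the one gene of the 12 called between Th9 and Th2 cultures, 1.32-fold higher in Th9 (adjusted p = 0.0315).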

How the data were processed

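RNA was hybridised in 1 colour (Cy3) to Agilent mouse arrays of 45018 spots and 12 scans were used. The deposited scanner files hold an intensity per spot, background-subtracted, per the file headers, by Agilent's software Feature Extraction in version 10.5.1.1. From these, log2 of the processed signal was taken, the array's 75th percentile was subtracted, control spots and 60 to 94 flagged spots per array were left out, and spots of a probe were averaged. A series table of log2 values deposited by the authors served as an alternative. Its column medians were 5.171 to 5.174, its columns correlated with log2 of the processed signals at 0.9996 to 1.0, and its normalization is not given in the sources used here. Its member differences nearly matched those after quantile normalization, another alternative (1.19 and 1.2 for Sln between stimulated Th9 and Th9 cultures). These settings are therefore not separate where settings are counted. Further per-array exports of the same scans were not used.

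A probe was kept if well above background on at least 3 of 12 arrays, the brightest probe stood for a gene, and names came from a GRCm38.p6 gene table for 14208 of 17925 genes. The fit took all 12 arrays in limma 3.58.1 (lmFit and eBayes in R 4.3.3, with the package data.table in version 1.17.8). It had 1 mean per group, with 8 residual and 2.5 prior degrees of freedom. Benjamini-Hochberg adjustment ran over all genes, and calls were made under 0.05. Other probes of a member took the p-value of a fit over all probes. The procedure was tested on simulated data. For probes with several spots, the background call is that of at least 50% of them. The number of arrays limits the precision.

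The genes, the lists and the alternatives were chosen with earlier results of these data known. Setting arrays below the background call to their lowest signal above it, for the median and for partly measured groups, was chosen after seeing the data. Of each list, up to 3 called genes with the largest difference were named in Th9 minus Th2, stimulated Th9 minus Treg and stimulated Th9 minus Th9, and for each member the 3 genes of closest profile, and only some of these are given. Same-numbered Th9 and Th2 arrays deviated together (correlations of 0.201, 0.185 and 0.411), and same-numbered arrays of other groups had correlations of -0.022 to 0.209. Arrays with different numbers were not compared in this way, so a pairing is not shown, and the labels give none. Promoter sequences came from RefSeq (GRCm38.p6) for 3 of the 7 genes.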

Additional observations from a re-analysis of the deposited data

How the results depend on the processing

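The 5 calls of members between stimulated Th9 and Treg cultures and the 6 between stimulated Th9 and Th2 cultures were kept in all alternatives run (background correction, quantile normalization, the deposited log2 table, the 75th percentile over probes well above background on all arrays, other filters, slide or replicate number as a block, and each array left out), although with normexp the differences from Treg cultures shrank from 4.06 to 0.58 for Sln, from 3.39 to 0.39 for Clu and from 3.13 to 0.37 for Mlana. Members called between Th9 and Treg cultures numbered 4, but 2 with normexp, 1 with the slide as a block and 3 to 5 without 1 array, and Clu turned from 1.22 to -0.13 with normexp. For these the cause was not tested. Pathway genes called between Th9 and Th2 cultures numbered 10, but 19 with normexp, 1 with the slide as a block and 5 to 10 without 1 array, while between stimulated Th9 and Th2 cultures they numbered 48, and 31 with the slide as a block.

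With the replicate number as a block, 17 pathway genes were called between Th9 and Th2 cultures. That block added a call for Kel between stimulated Th9 and Treg cultures (1.35, adjusted p = 0.0467) and for Sln between stimulated Th9 and Th9 cultures (1.05, adjusted p = 0.0393), and it changed no other call of a member.

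Over all genes, Th9 cultures had 1416 higher and 1646 lower than Th2 cultures. With the slide as a block these were 195 and 129. Leaving out Th2 array 1 gave 933 lower, Th2 array 2 gave 888, Th9 array 1 gave 1084, and Th9 array 2 gave 947 lower and 866 higher. Between Th9 and Treg cultures 5038 were higher and 6477 lower, against 3093 and 3665 with the slide as a block. Under normexp the members' differences between Th9 and Th2 cultures shrank to 2.93 for Gad2, 1.51 for Myo3b, -4.05 for Sln, -1.43 for Mlana, -1.98 for Kel and -1.23 for Clu, with their direction kept. Signals near background limit every fold written as at least.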
